A study of Homo sapiens with 172 samples.

Results

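The natural killer lectin receptor complex is a row of genes on the short arm of human chromosome 12, and its contact with the nuclear lamina was examined in single KBM7 cells. It was taken as the 10 bins of 100 kb that fill 12:9700001-10700000 in hg19, out of 26414 bins with values in the series, and set beside the other 25 bins of 12:8500001-12000000. Its bins were taken by position alone. KBM7 is a near-haploid line from a human chronic myeloid leukaemia. All cells belonged to 1 group, haploid cells of clone 5-5 with a Dam-LaminB1 transgene, in which a bacterial DNA methylase is joined to a protein of the nuclear lamina. GATC sites that come close to the lamina, a mesh of proteins lining the inside of the nuclear envelope, are marked by it. The fusion was stabilised for 15 h with 0.5 nM Shield1, and single cells were taken from the smallest 2% of those with both Fucci markers, which report the cell cycle stage. With 1 clone and no named cultures, no test between groups was possible, and SDs below are over cells.

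The complex encodes C-type lectin-like membrane proteins. The KLR genes encode receptors of natural killer and T cells, several of which read MHC class I or stress-induced ligands. Many of the CLEC genes act instead in myeloid cells, where they bind fungal sugars, modified lipoproteins or dead cells, and some of the others are ligands or activation markers. Genes that a cell type does not use often lie at the lamina.

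No hg19 gene annotation was used, so genes were placed in bins from general knowledge of the hg19 map. RefSeq (GRCh38.p14) lists the 9 member genes in the same order. KLRB1 was placed in bin 1. The CLEC part was taken as bins 2 to 7 (12:9800001-10400000), with CD69, CLEC2B, CLEC12A, CLEC7A and OLR1. The KLR part was taken as bins 8 to 10 (12:10400001-10700000), with KLRD1 in bin 8, KLRK1 in bin 9 and KLRC1 across the border of bins 9 and 10. Not all KLR genes lie in the KLR part. KLRF1 and KLRF2 were placed within the CLEC part, and KLRG1 in the left flank.

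DamID reads start at GATC, so the promoters of 1 gene from each stretch of the complex are shown with any GATC in capitals. They run from 250 bases before to 50 bases after the start of the gene and come from RefSeq (GRCh38.p14), which matched 3 of the 9 members. KLRB1 lies at chr12:9607867-9608166 on the minus strand, CLEC12A at chr12:9971159-9971458 on the plus strand, and KLRC1, the first of 3 listed starts, at chr12:10454636-10454935 on the minus strand, all in GRCh38.p14.
KLRB1: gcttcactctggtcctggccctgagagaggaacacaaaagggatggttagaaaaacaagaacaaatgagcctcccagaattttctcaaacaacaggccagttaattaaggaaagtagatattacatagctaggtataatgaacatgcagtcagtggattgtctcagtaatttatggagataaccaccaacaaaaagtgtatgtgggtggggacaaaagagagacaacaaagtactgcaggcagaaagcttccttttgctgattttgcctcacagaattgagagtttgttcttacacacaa
CLEC12A: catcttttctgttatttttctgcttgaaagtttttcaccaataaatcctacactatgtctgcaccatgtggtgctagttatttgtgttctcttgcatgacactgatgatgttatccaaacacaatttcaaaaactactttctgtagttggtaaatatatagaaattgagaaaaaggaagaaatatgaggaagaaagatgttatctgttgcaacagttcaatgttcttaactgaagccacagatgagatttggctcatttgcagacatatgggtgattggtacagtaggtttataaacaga
KLRC1: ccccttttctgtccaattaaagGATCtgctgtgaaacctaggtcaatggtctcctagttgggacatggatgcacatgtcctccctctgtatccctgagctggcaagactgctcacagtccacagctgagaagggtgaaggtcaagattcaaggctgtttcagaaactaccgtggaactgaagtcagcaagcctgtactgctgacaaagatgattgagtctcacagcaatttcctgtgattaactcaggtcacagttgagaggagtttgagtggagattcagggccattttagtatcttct
The motif GATC, which reads the same on both strands, was found once in each of the 3 KLRC1 windows and in neither of the KLRB1 and CLEC12A windows. It occurs in 41.7% of 35116 promoter windows of 300 bases. Each window is a small part of a 100 kb bin, and the ratio was not measured at promoters.

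The measured value was the ratio of observed over expected reads per bin and cell. Samples whose numbers differ by 86 hold the same cell, so their columns were averaged, which gave 84 cells. Contact was called from a ratio of 1 upwards, and contact frequency is the percent of cells in contact, with an exact Clopper-Pearson 95% interval. Cells had from 7134 to 418937 reads in the deeper of their columns, with a median of 63700. At a ratio of 1 in every bin, the window would hold a median of 21.0 reads per cell (range 2.33 to 137). The intervals are binomial over the 84 cells and cover counting error in the number of cells only. Reads amplified by PCR without molecular identifiers are not independent molecules, and the intervals do not allow for errors in the calls. Cells 69 and 79 had 507 and 705 reads on the whole of chromosome 12 and none in the window. They had 0% and 0.458% of chromosome 12 bins in contact and were kept as cells without a window contact. Cell 78, also kept and without window reads, had 4.97% of chromosome 12 bins in contact, against 36.7% of all covered bins.

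The lectin receptor window was away from the lamina in most cells. Its mean contact frequency was 4.88% ± 11.8 (SD, n = 84 cells), against 25.6% ± 9.93 in the rest of chromosome 12. The difference was -20.7 ± 13.0 percentage points, and the window was lower in 81 cells, higher in 2 and equal in 1. Its median bin was contacted in 4.17% of cells, against a median of 9.52% over the 1309 covered bins of chromosome 12 and 16.7% over all covered bins.

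All 10 window bins were contacted in under 20% of cells, a class that held 52.3% of all covered bins and 56.3% of those on chromosome 12. In 8 of them the frequency was under 5%, against 36.7% of all covered bins and 41.4% on chromosome 12. The window belongs to a long stretch of bins under 20%, followed outwards until a bin reached 20% or the chromosome ended. Its borders were thus set by these same frequencies. From position 1 of chromosome 12 to 11500000, all 115 bins were under 20%, and the 105 bins outside the window averaged 2.89% ± 4.64. The window exceeded them by 1.99 ± 9.44 points, which is less than the spread between cells, and it was higher in 20 cells and lower in 35. Here and below, the spread between cells is the SD over single cells and does not measure the error of a mean. Without cell 1 the excess was 1.21 points. The nearest bin contacted in at least 50% of cells was 12:15200001-15300000, at 54.8%, 4.5 Mb beyond the right end of the window.

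**Figure D1:**
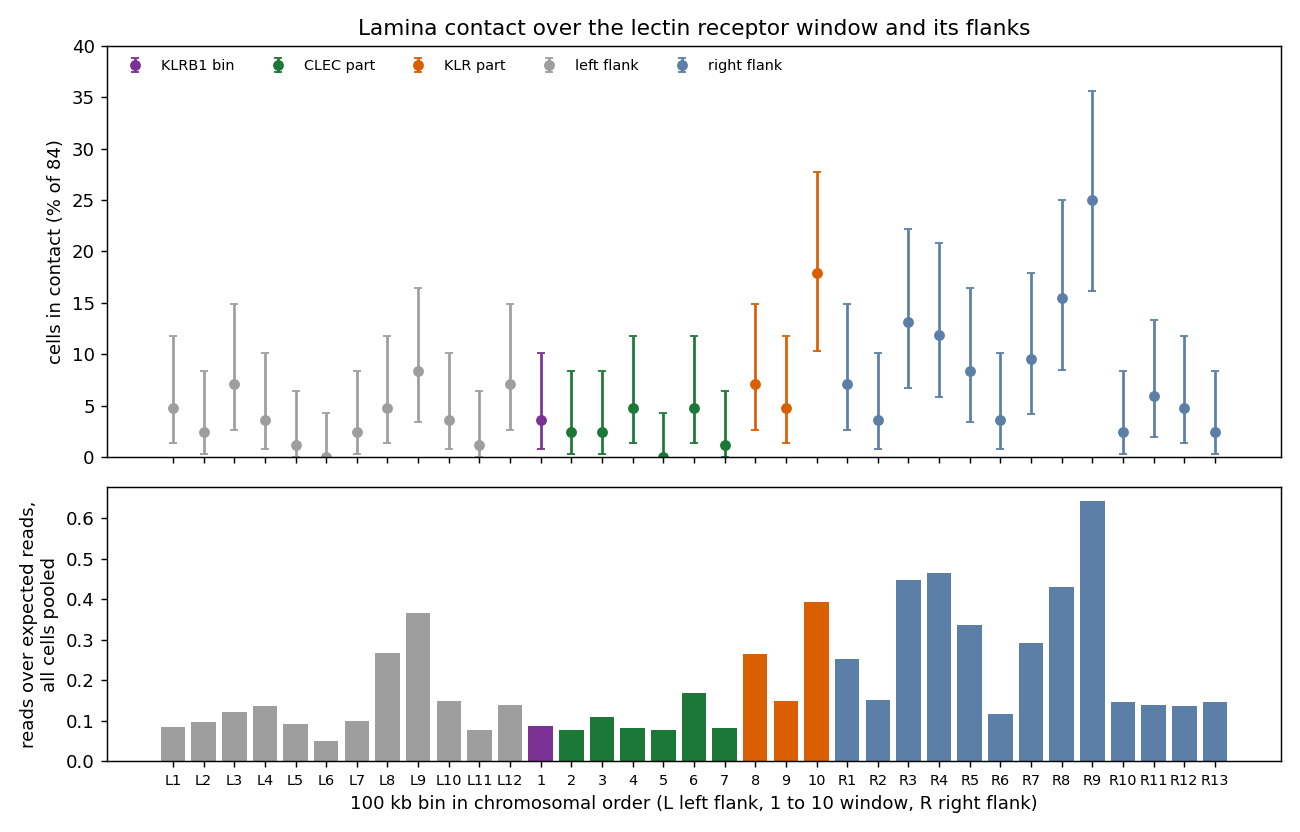
Upper panel, percent of 84 cells in contact in each 100 kb bin of 12:8500001-12000000 with exact 95% intervals. Lower panel, reads over expected reads with all cells pooled. Bin 10 stands highest in the window at 17.9% and R9 highest in the region at 25.0%.

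The bins of the CLEC part were in contact with the lamina in very few cells. Bin 3, with CD69, an early activation marker of lymphocytes, was in contact in 2 of 84 cells (2.38%, interval 0.290 to 8.34%). Its ratio was 0 in the median cell and reached 1.94 in cell 47. Bin 4, with CLEC2B, a ligand of the natural killer receptor NKp80, was in contact in 4 cells (4.76%, 1.31 to 11.7%), with a highest ratio of 6.04 in cell 54. Cell 54 had 14065 reads in its deeper column, of which 2 lay in the window.

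Bin 5, with CLEC12A, an inhibitory receptor of myeloid cells, was in contact in 0 of 84 cells (exact 95% interval 0 to 4.30%). By the simpler limit of 3 cells of 84, a count of 0 allows a frequency of up to 3.57%. Such bins make up 6.19% of all covered bins. It was not empty, since 16 cells had a value above 0, and the highest was 0.940 in cell 1. Reads of all cells pooled reached 0.0771 of the expected number.

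Bin 6, with CLEC7A, the beta-glucan receptor known as Dectin-1, was in contact in 4 cells (4.76%, 1.31 to 11.7%), with a highest ratio of 3.15 in cell 40. It had the highest pooled value of the CLEC part, at 0.168. Bin 7, with OLR1, a receptor for oxidised LDL, was in contact in 1 cell (1.19%, 0.0301 to 6.46%), which was cell 1 at a ratio of 1.60. Bin 2 holds no member gene. CLEC2D, the ligand of KLRB1, was placed there, and it was in contact in 2 cells (2.38%). The intervals of these 6 bins overlap one another.

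Bin 1, with KLRB1, an inhibitory receptor also called CD161, lies at the other end of the window from the KLR part. It was in contact in 3 cells (3.57%, 0.743 to 10.1%), which were cells 1, 8 and 48 at ratios of 4.22, 1.16 and 1.06. Of these contacts 1 rested on a single read. Its pooled value was 0.0870, against 0.0993 in the CLEC part. Without cell 48, which gave 6 of the 16 reads of bin 1, the values were 0.0560 and 0.0801.

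The KLR part was contacted more often than the CLEC part, mainly through its last bin. Bin 8, with KLRD1, the CD94 chain that pairs with NKG2 proteins, was in contact in 6 cells (7.14%, 2.67 to 14.9%), with a highest ratio of 3.20 in cell 1. Bin 9, with KLRK1, the activating receptor NKG2D, was in contact in 4 cells (4.76%, 1.31 to 11.7%), with a highest ratio of 3.91 in the same cell. Of the contacts of bin 9, 2 rested on 1 read. The intervals of both bins overlap those of the CLEC bins.

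Bin 10 begins in KLRC1, the inhibitory receptor NKG2A, and no other KLR gene was placed in it. The bin was in contact in 15 of 84 cells (17.9%, 10.4 to 27.7%). The 15 ratios ran from 1.02 to 5.06 with a median of 1.57, and the highest came from cell 19, which had the fewest reads of all cells. Of these contacts 2 rested on 1 read, 5 on 2 or 3 reads, and 8 on 4 or more. RefSeq lists EIF2S3B, a copy of a translation initiation factor subunit, as the next coding gene after KLRC1. The interval of bin 10 lies above those of bins 2, 3, 5 and 7, and also above that of bin 1, whose upper end is 10.1%. It overlaps the intervals of bins 4, 6, 8 and 9. Bin 10 was singled out as the highest window bin, and all bins share the same cells. These comparisons of intervals are therefore a description and not a test.

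Bin 10 was the highest of the 115 bins in the stretch under 20%, which by its definition stops before R9, at 25.0%. The frequency of bin 10 was still near the middle of all bins, above 50.8% of those covered in the series. On either side of it the frequency dropped, to 4.76% in bin 9 and 7.14% in the first bin beyond the window.

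**Figure D2:**
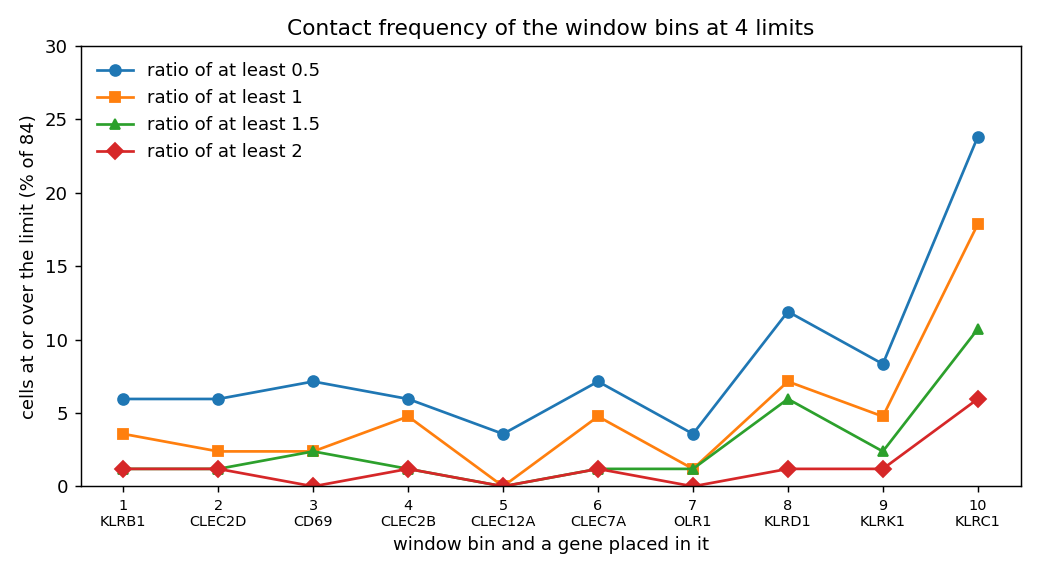
Percent of 84 cells (vertical axis) in which a window bin (horizontal axis) reached each of 4 ratio limits. Bin 10 was highest at each limit, with 23.8% at 0.5, 17.9% at 1 and 5.95% at 2. It is labelled KLRC1 but holds only a part of that gene.

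The CLEC part was contacted less often than the KLR part. The CLEC part had 2.58% ± 8.77 of its bins in contact and the KLR part 9.92% ± 21.8 (SD, n = 84 cells). The difference, CLEC minus KLR, was -7.34 ± 18.0 points. The CLEC part had the higher share in 4 cells and the KLR part in 17, while 63 cells had no contact in either. The mean difference is smaller than the spread between cells, and no p-value was made from cells.

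The same order was seen without a limit on the ratio. The mean ratio was 0.104 ± 0.214 in the CLEC part and 0.242 ± 0.499 in the KLR part, with a difference of -0.138 ± 0.402. Reads of all cells pooled came to 198 in the CLEC part and 206 in the KLR part, or 0.0993 and 0.278 of the expected numbers. Cell 48 gave 43 of these reads in the CLEC part and 22 in the KLR part, and the pooled values without it were 0.0801 and 0.256.

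Bin 10 carried much of this difference. Without it the KLR part had 5.95% ± 19.6 of its bins in contact, and the difference from the CLEC part was -3.37 ± 15.3 points. The pooled value of bins 8 and 9 alone was 0.211, against 0.392 for bin 10. Over cells, bin 10 had 17.9% ± 38.5 in contact and bins 8 and 9 had 5.95% ± 19.6, with bin 10 higher in 14 cells and lower in 2. By mean ratio the CLEC part was above bins 8 and 9 in 29 cells and below them in 21, although its mean over cells differed by -0.0628 ± 0.360. Without cell 1 this difference was -0.0370.

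Read number did not change the order of the parts. In the 35 cells with at least 100000 reads, the CLEC part had 1.43% ± 4.73 in contact and the KLR part 10.48% ± 22.5. In the 49 cells with fewer reads the values were 3.40% ± 10.75 for the CLEC part and 9.52% ± 21.52 for the KLR part. Bin 10 was in contact in 20.0% of the deep cells and 16.3% of the others. All covered bins together were in contact in 31.4% ± 5.06 and 25.1% ± 6.28 of cases in these sets of cells. The CLEC minus KLR difference was -8.05 points in cells 1 to 29 and -6.97 points in cells 30 to 86.

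**Figure D3:**
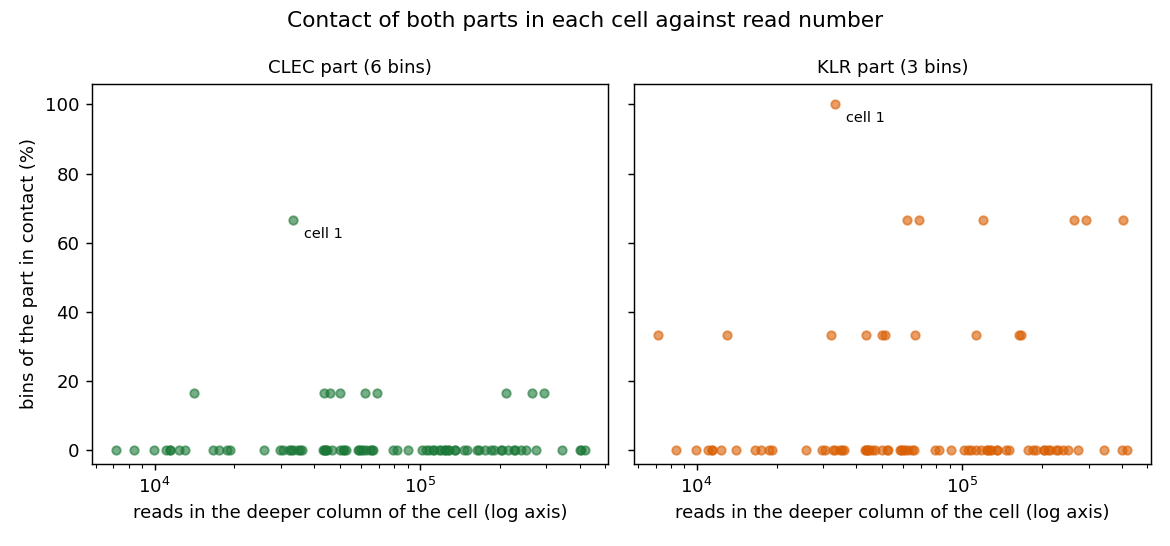
Percent of bins in contact in the CLEC part (left) and the KLR part (right) for each of 84 cells (points), against the reads in the cell's deeper column on a log axis. Cell 1 is the highest point in both panels, and most cells lie at 0.

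Contact of the window was spread unevenly over cells. Of 84 cells, 63 (75.0%) had no window bin in contact, 12 had 1, 4 had 2, 3 had 3, 1 had 4 and 1 had 8. In 32 cells no window bin had a value above 0. The 41 contacts formed 34 runs of consecutive bins, counted into the flanks, and 26 of these were a single bin long.

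The ratios at these contacts were low. Their median was 1.57, against 2.28 over the contacts of all covered bins. Of the 41 contacts, 6 (14.6%) rested on 1 read, against 6.79% of the contacts of all covered bins, and 17 rested on 4 or more reads.

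Cell 1 stood apart from the others within the window. It had 8 of the 10 window bins in contact, namely bin 1, 4 bins of the CLEC part and all 3 of the KLR part. Its longest run covered 12:9200001-9900000, from the left flank into bin 2, at a mean ratio of 7.13, and a second run covered 12:10200001-10700000 at 2.49. Its 2 columns, which hold the same cell and are not independent, had 9 and 7 window bins at a ratio of at least 1. The median ratio of its contacts over the genome was 2.78, and 24.6% of covered bins were in contact in it, against a mean of 27.8% over cells. It had 33312 reads in its deeper column, of which 16 fell in the window. Whether its high ratios reflect contact or the copy number of this region was not tested, and it gave 8 of the 41 window contacts. Without cell 1 the window mean was 3.98% ± 8.40 and the CLEC minus KLR difference -7.03 ± 17.9 points, and bin 7 was in contact in no cell.

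Cell 48 came next with 4 window bins in contact, in bins 1, 6, 9 and 10. It had a value above 0 in each of the 10 bins and 71 of the 420 window reads. No other cell had over 3 window bins in contact. The number of window bins in contact followed the overall contact share of a cell only loosely (r = 0.14, rho = 0.10, 84 cells), and read number less (r = 0.044, rho = 0.017), as descriptions over cells that share 1 clone. Without cell 1, r was 0.25 with contact share and 0.14 with read number.

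**Figure D4:**
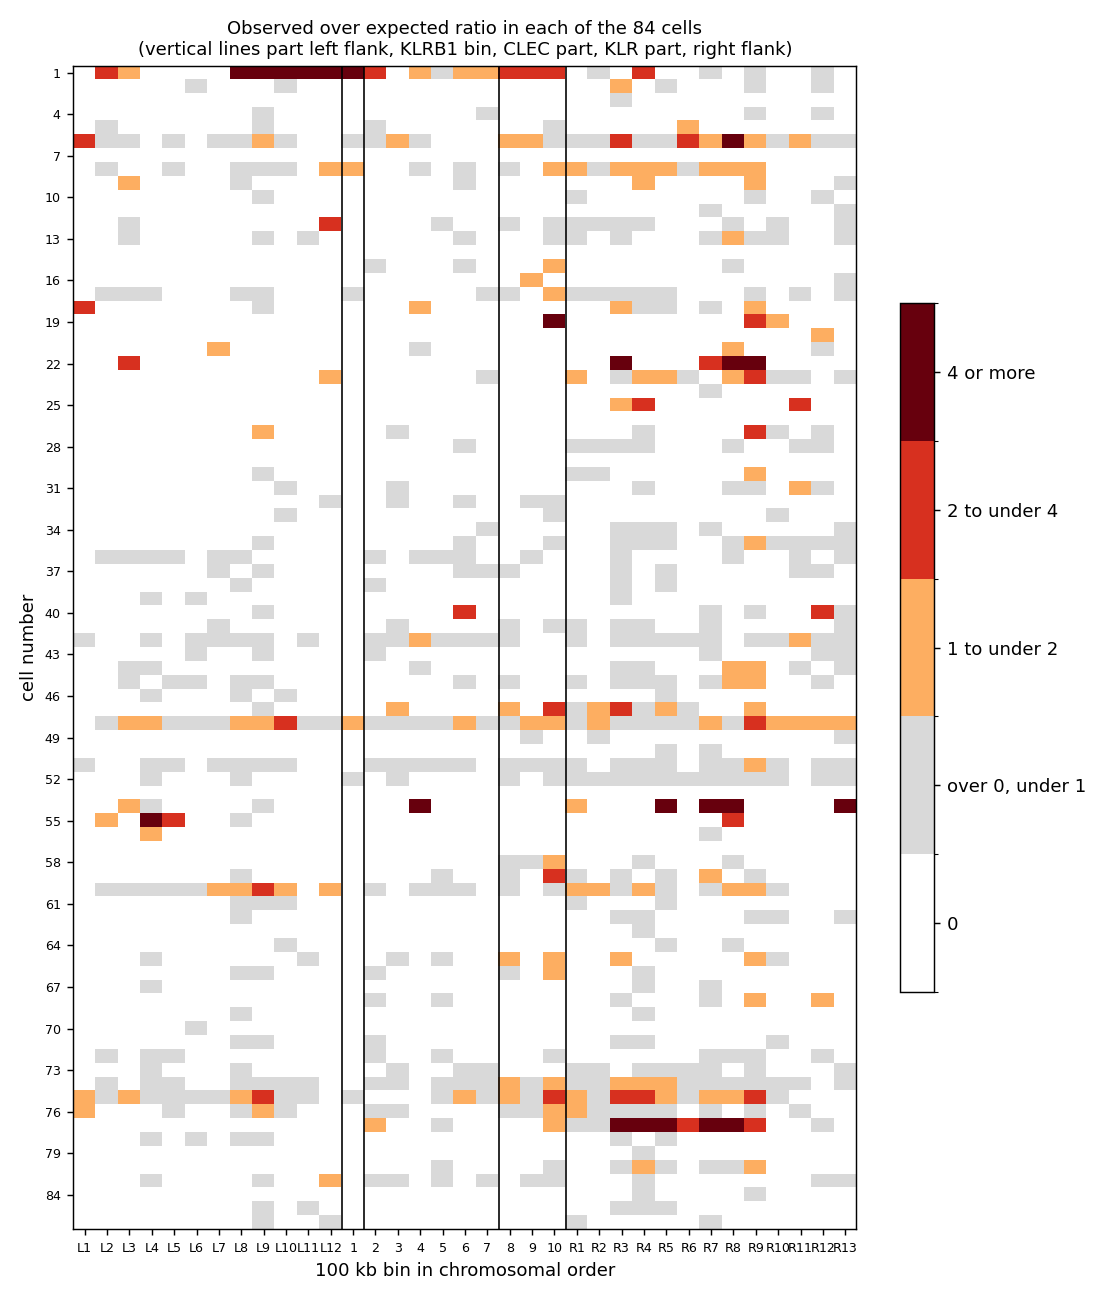
Observed over expected ratio in 5 classes (colours) for each of 84 cells (rows) and 35 bins (columns, in chromosomal order). The row of cell 1 is coloured from L8 through most of the window. In the other rows, bins with ratios of at least 1 are most frequent at bin 10, R3, R4, R8 and R9. They are not all scattered, since cell 77 has an unbroken run from R3 to R9 at ratios of 3.27 to 9.03.

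Contacts in the CLEC and KLR parts overlapped in 6 cells. Of the 10 cells with a contact in the CLEC part these were 60.0%, and 11 of the other 74 cells (14.9%) had a contact in the KLR part. Of the 17 cells with a contact in the KLR part, 11 had none in the CLEC part. Pearson's r between the shares of both parts was 0.61 after a linear fit on the cells' overall contact share was subtracted, and 0.43 without cell 1. Spearman's rho of the uncorrected shares was 0.42, and 0.36 without cell 1. Bins of 1 cell share its library and depth, and 63 cells lie at 0 in both parts. Within the KLR part, 6 of the 15 cells with bin 10 in contact also had bin 8 or 9 in contact, so in 9 cells bin 10 was the only KLR bin.

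Adjacent window bins had a mean correlation of 0.264 after the same linear fit was subtracted, and of 0.254 without the fit. With the fit, the 7 pairs with contacts in both bins ran from -0.024 for bins 3 and 4 to 0.50 for bins 6 and 7. Adjacent covered bins over 0 and under 20% averaged 0.189 over 9774 pairs. Without cell 1 the window value was 0.0481 over 5 pairs, so that it rested on this cell.

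The flanks differed from each other. The window averaged 4.88% ± 11.8, the left flank (12:8500001-9700000) 3.87% ± 10.2 and the right flank (12:10700001-12000000) 8.70% ± 14.6. The window minus both flanks was -1.5 ± 9.498 points, with the window higher in 13 cells and lower in 31. Against the left flank it was 1.01 ± 8.97 points, and against the right flank -3.82 ± 13.4 points. All of these are smaller than the spread between cells. By mean ratio the window minus the left flank was -0.00496 ± 0.257, with the window higher in 31 cells and lower in 38. Without cell 1 this was 0.0155 ± 0.176. The pooled values were 0.144 in the window and 0.159 in the left flank. Of the left flank contacts 41.0% rested on 1 read, against 14.6% in the window. The KLR part, which adjoins the right flank, was 1.22 ± 19.4 points above it, and 0.124 points above it without cell 1. It was higher in 15 cells and lower in 26. The difference in mean ratio, KLR part minus right flank, was -0.0649 ± 0.625, with the KLR part higher in 24 cells and lower in 53.

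The lowest flank bin was L6, where PHC1, a Polycomb subunit, and M6PR, the mannose 6-phosphate receptor, were placed, with contact in 0 of 84 cells (0%, 0 to 4.30%). The highest was R9, the second bin placed at the PRB salivary proline-rich protein genes, in 21 cells (25.0%, 16.2 to 35.6%). It was followed by the largest step of the region, to 2.38% in the next bin. Bins R3 and R4, at the start of the bitter taste receptor genes, had 13.1% and 11.9%. The 2 bins placed at ETV6, a transcription factor of blood cells, had 4.76% and 2.38%.

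Cells with a window contact had contacts in the flanks more often than other cells. Of the 21 cells with a window contact, 16 (76.2%) had one in the right flank, against 20 of the other 63 (31.7%). All 10 cells with a contact in the CLEC part were among those with one in the right flank, a region of 13 bins that 36 cells contacted in all. For the left flank the numbers were 8 of 21 cells (38.1%) and 10 of 63 (15.9%). Of the 15 cells with bin 10 in contact, 7 also had R8 or R9 in contact and 8 had neither.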

How the data were processed

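DNA of single KBM7 cells methylated by Dam-LaminB1 was sequenced, and the authors deposited 1 table of observed over expected ratios in 100 kb bins. Per the submitters' processing notes, cutadapt and Bowtie2 2.1.0 were used with hg19. Duplicate handling and the source of the expectation: not given in the sources used here. Of 172 labelled samples, 168 have a column, and the others were not analysed here. Of 30376 bins, 3792 had no value and 170 were 0 throughout, which left 26414.

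Each of the 168 columns correlated best with the column 86 numbers away, so pairs were averaged to 84 cells. Whole reads were worked back from the deposited ratios, by finding for each bin and each column the value that 1 read is worth (100% of values above 0 came out whole, tolerance 0.02), after a test on simulated data. A ratio of at least 1 was a contact. No p-value was made from cells. Python 3.11.15, numpy 2.4.6, pandas 2.3.3 and scipy 1.17.1 were used. All window bins are described. Flank bins are named where highest, lowest or at the largest step, and R3, R4 and the ETV6 bins were named after their values were seen. The members, parts and alternatives were chosen with earlier results of these data known.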

Additional observations from a re-analysis of the deposited data

How the results depend on the processing

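Settings were varied in 112 values, 9 of them chosen after seeing the data (without cell 1, and without bin 10). The window mean and the differences in frequency moved by less than 1 SD over cells, but that spread is wide and shows little about stability. The correlations and the percents of cells had no SD over cells to be set against. The CLEC minus KLR difference kept its sign in all 19 (-9.13 to -2.18 points), the last at a cutoff of 2. The window minus flanks difference turned to 1.01 points against the left flank alone, which leaves out the more often contacted right flank. The correlation of the parts was 0.285 in even-numbered cells, which do not hold cell 1. The correlation of adjacent bins was 0.812 at a cutoff of 2, 0.0198 in cells 30 to 86 and 0.0481 without cell 1. Cells without a window contact were 64.3% when contact began at a ratio of 0.5 and 91.7% when it began at 2. Cells with 6 or more window bins in contact were 0% at a cutoff of 2, in cells 30 to 86, in even-numbered cells, in cells with at least 100000 reads and without cell 1, since cell 1 is the only one in the 1.19%. The window mean ran from 1.31% (cutoff 2) to 8.33% (cutoff 0.5). No paired analysis was possible because replicate numbers cannot pair samples within 1 group. The parts of the window were compared within each cell. In a median cell a ratio of 1 in bin 10 stands for 1.96 reads, so calls in shallow cells rest on few reads. Contacts there can go undetected, but in 17 cells 1 read in bin 10 is enough for a contact. The window mean was 5.31% in cells under 100000 reads and 4.29% in the deeper cells. Where no cause is given, the cause was not tested.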
